A study of Rattus norvegicus with 6 samples.

Results

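Phosphate and its inhibitor pyrophosphate set whether cartilage and bone matrix mineralises, and the genes that supply, consume or transport these ions were compared between rat condylar organoids and flat cultures of condylar chondrocytes. The genes were chosen by name, from a list of 9 symbols: the phosphatases Alpl and Phospho1, the sphingomyelinase Smpd3, the pyrophosphate suppliers Enpp1 and Ankh, the phosphate transporters Slc20a1 and Slc20a2, the endopeptidase Phex and the hormone gene Fgf23. Of these, 8 matched a row among the 17954 genes of the files, and Fgf23 was not analysed here. In organoids, transcripts of Alpl, Phospho1, Smpd3 and Phex rose, those of Slc20a1 and Slc20a2 fell, and Enpp1 and Ankh did not pass the test.

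The 2D culture group held 3 libraries of mandibular condylar chondrocytes (cartilage cells of the jaw joint's bony head) grown in DMEM medium that held antibiotics and 20% fetal bovine serum. The organoid group held 3 libraries of condylar cartilage organoids kept in a chondrogenic medium. No genotype, strain, age or added agent is given for either group in the sources used here, and the labels do not say if libraries of 1 group are separate cultures or animals, so the spread behind the p-values may be technical. The effects of format, medium and serum cannot be told apart.

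Mineral forms first inside and around matrix vesicles that bud from hypertrophic chondrocytes and osteoblasts. ATP and pyrophosphate leave the cell through Ankh, and Enpp1 makes pyrophosphate from ATP outside the cell. Pyrophosphate blocks crystal growth, and tissue-nonspecific alkaline phosphatase, encoded by Alpl, cleaves it to phosphate. Phospho1 frees phosphate from phosphocholine and phosphoethanolamine inside the vesicle, and Smpd3 supplies phosphocholine from sphingomyelin. Phex, a membrane endopeptidase of osteoblasts and osteocytes, degrades mineral-inhibiting peptides, and its loss raises the phosphate-wasting hormone Fgf23.

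Levels are counts per 1000000 of a library (CPM) with TMM scaling, and a mean is given with its SD over 3 libraries (n = 3). A log2 fold change compares organoids with 2D cultures and is given with its SE. A gene is called where edgeR's quasi-likelihood test, adjusted over all 13052 genes tested, gives a p under 0.05. Library totals ran from 18592574 to 26472447 estimated counts. Of all genes tested, 14.9% were called higher and 12.6% lower, and the groups did not overlap in 53.5%. Organoid libraries differed from each other more than 2D cultures did, with a median SD of log2 CPM of 0.69 against 0.14. The label of chondrocyte was checked against its markers: of 10 chondrocyte markers 8 rose in organoids, and Col2a1, the main collagen of cartilage, was at 2.91 to 4.89 CPM in 2D cultures and 6414 to 78321 CPM in organoids. The other markers of the list differed widely in level in 2D cultures. Acan, the aggrecan gene, was at 1413 to 1513 CPM there and 1717 to 8278 CPM in organoids and did not pass (1.57 ± 0.57, edgeR adjusted p = 0.0824). Sox9, the master regulator of cartilage, was at 51.4 to 55.4 CPM in 2D cultures and Hapln1 at a mean of 21.3 CPM, and both rose. The 2D mean was 7.92 CPM for Comp, 2.84 CPM for Col9a2 and 0.306 CPM or less for Col11a2, Matn3, Col9a1 and Matn1.

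All 8 genes passed the filter on low counts. Of them, 4 were called higher and 2 lower, which is 6 of 8 beside 27.5% of all genes tested. The same 6 had no overlap between the groups, beside 53.5% of all genes tested. Their median log2 fold change was 1.78 and their median absolute change 3.37, beside -0.03 and 0.87 over all genes tested. The 8 genes were chosen with earlier results of these data known, so these shares and medians are a description and no independent evidence. When libraries were scaled to their totals and not by TMM, the median over all genes moved to -0.65, and each of the 8 kept its direction.

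**Figure D1:**
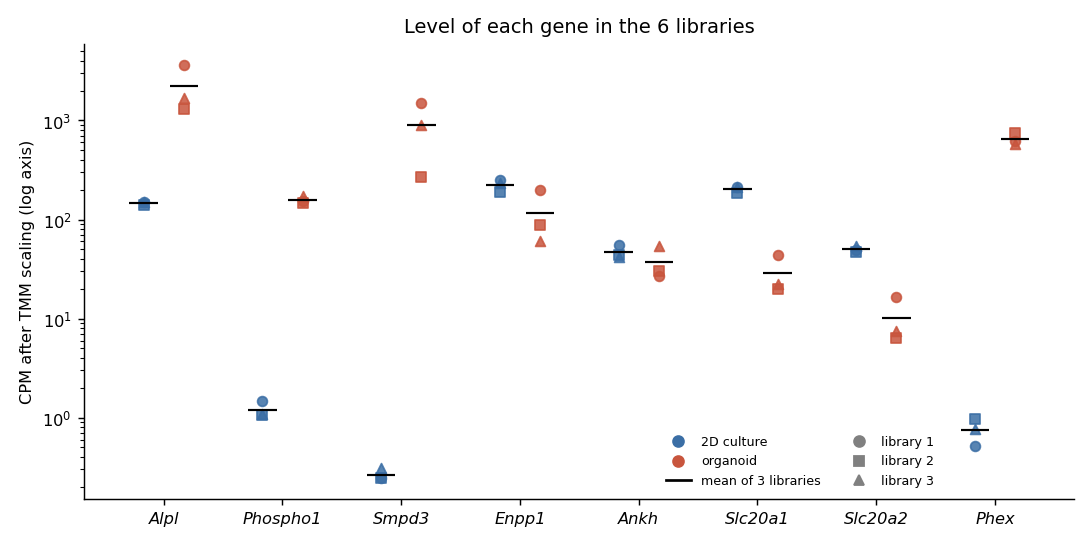
CPM after TMM scaling on a log axis for the 8 genes in each of the 3 2D culture libraries (blue) and 3 organoid libraries (red), with horizontal lines at the group means. Organoid points lie above the 2D culture points for Alpl, Phospho1, Smpd3 and Phex, below them for Slc20a1 and Slc20a2, and overlap them for Enpp1 and Ankh.

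Both phosphatases rose. Alpl (gene ID 25586) was at 151, 141 and 151 CPM in 2D cultures 1 to 3 and at 3658, 1316 and 1674 CPM in organoids 1 to 3. Every organoid lay far above every 2D culture, and organoid 1 stood well above the other organoids. The mean went from 148 ± 6.05 to 2216 ± 1262 CPM, a 15.0-fold rise (log2 fold change 3.91 ± 0.45, edgeR adjusted p = 0.00221). As these are bulk samples, more cells that express a gene and more transcript per cell cannot be told apart. Alpl was already among the well-detected transcripts of the flat culture, ranking 987th by mean CPM there and 33rd in organoids.

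Phospho1 (gene ID 287644) was at 1.47, 1.07 and 1.08 CPM in 2D cultures 1 to 3 and at 155, 148 and 173 CPM in organoids 1 to 3. The 2D level rests on 118 counts over the 3 libraries. The rise was 131-fold (7.03 ± 0.27, edgeR adjusted p = 0.000142). After TMM scaling the 3 organoids lay close together, with the highest 1.16 times the lowest. The TMM factors of organoids 1 to 3 were 0.662, 0.896 and 0.877, so this ratio depends on the scaling. Among 8569 tested genes with at least 10 CPM in organoids, 3.37% had a smaller ratio and the median ratio was 2.10.

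Sequences upstream of the start site were available for 3 of the 8 genes in the RefSeq table of build GRCr8, and they are shown because Alpl and Phospho1 rose together while Ankh did not pass the test. They cover the 250 bases before the annotated start, 5′ to 3′ on the gene's strand: chr5:155289786-155290035 on the minus strand for Alpl, chr10:81258560-81258809 on the plus strand for Phospho1 and chr2:79883201-79883450 on the plus strand for Ankh. Capitals mark matches on either strand to the GC box GGGCGG, the AP-1 site TGANTCA, the cyclic AMP response core TGACG, the RUNX site TGTGGT or the homeodomain site TAATTA; neighbouring GC box matches can share bases.
Alpl: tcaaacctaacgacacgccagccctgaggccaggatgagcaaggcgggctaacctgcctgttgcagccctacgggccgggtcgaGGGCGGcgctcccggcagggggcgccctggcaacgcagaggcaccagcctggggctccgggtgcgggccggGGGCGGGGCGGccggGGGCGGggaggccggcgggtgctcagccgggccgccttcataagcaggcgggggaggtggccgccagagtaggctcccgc
Phospho1: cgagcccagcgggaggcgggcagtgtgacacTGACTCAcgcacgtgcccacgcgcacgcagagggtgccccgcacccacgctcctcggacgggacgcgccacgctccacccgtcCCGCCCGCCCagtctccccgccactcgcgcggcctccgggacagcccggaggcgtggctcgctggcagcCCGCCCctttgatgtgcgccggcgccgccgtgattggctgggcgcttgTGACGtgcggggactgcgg
Ankh: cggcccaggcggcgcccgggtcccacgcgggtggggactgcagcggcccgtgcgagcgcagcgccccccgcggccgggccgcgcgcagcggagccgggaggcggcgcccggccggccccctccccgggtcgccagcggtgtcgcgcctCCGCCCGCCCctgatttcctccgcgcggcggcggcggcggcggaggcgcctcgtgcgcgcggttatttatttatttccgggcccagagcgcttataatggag
The GC box occurred 4 times in the Alpl window, 3 times in that of Phospho1 and 2 times in that of Ankh, and 30.5% of the 33469 promoters of the table held at least 1 in a window of the same length. The Phospho1 window also held 1 AP-1 match and 1 TGACG match, against 6.34% and 18.2% of all promoters with at least 1. The RUNX letters, in 14.5% of all promoters, and the homeodomain letters, in 4.86%, were in none of the 3 windows. All 3 windows are rich in G and C, with 76.0% for Alpl and for Phospho1 and 79.2% for Ankh beside a median of 51.2%. These matches describe letters and not binding, and the 2 genes that rose and the 1 that did not pass share the GC box.

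Smpd3 (gene ID 94338), neutral sphingomyelinase 2, had the largest fitted change of the 8 genes. It was at 0.245, 0.245 and 0.310 CPM in 2D cultures 1 to 3, on 26 counts in all, and at 1511, 267 and 905 CPM in organoids 1 to 3. The groups lie orders of magnitude apart, and the organoids differed among themselves by up to 5.66 times, a larger ratio than in 92.9% of the 8569 genes. The log2 fold change was 11.69 ± 0.90 (edgeR adjusted p = 0.000574), rank 27 by size among all genes tested. Phospho1 and Smpd3, which act in sequence, ranked the organoids differently. The log2 ratio of Phospho1 to Smpd3 counts within a library was -3.28, -0.85 and -2.39 in organoid 1, 2 and 3, against 2.51, 2.06 and 1.76 in the 2D cultures.

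The suppliers of pyrophosphate did not pass the test. Enpp1 (gene ID 85496), the ectoenzyme that makes pyrophosphate from ATP, was at 250, 191 and 235 CPM in 2D cultures 1 to 3 and at 198, 88.3 and 60.1 CPM in organoids 1 to 3. Organoid 1 lay within the range of the 2D cultures, and the other organoids lay below it. The log2 fold change was -0.97 ± 0.44 (edgeR adjusted p = 0.150). It passed without organoid 1 (-1.59, adjusted p = 0.0120), with total library size (-1.68, adjusted p = 0.0114) and with limma-voom when each group had its own weight (-1.15, adjusted p = 0.0473). The count of Enpp1 was not whole in 1 library, as an estimated count can be where reads match more than 1 gene.

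Ankh (gene ID 114506), the membrane protein through which ATP and pyrophosphate leave the cell, was at 55.1, 43.3 and 41.6 CPM in 2D cultures 1 to 3 and at 26.9, 30.2 and 53.6 CPM in organoids 1 to 3. Organoid 3 lay within the 2D range and organoids 1 and 2 below it. The log2 fold change of -0.34 ± 0.32 did not pass (edgeR adjusted p = 0.467), and it stayed between -0.92 and -0.13 over 14 other settings without passing in any of them. Ankh was highest in organoid 3, where Enpp1 was lowest, so the log2 ratio of Enpp1 to Ankh ranged from 0.16 to 2.88 over the organoids and overlapped the 2D range of 2.14 to 2.50.

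**Figure D2:**
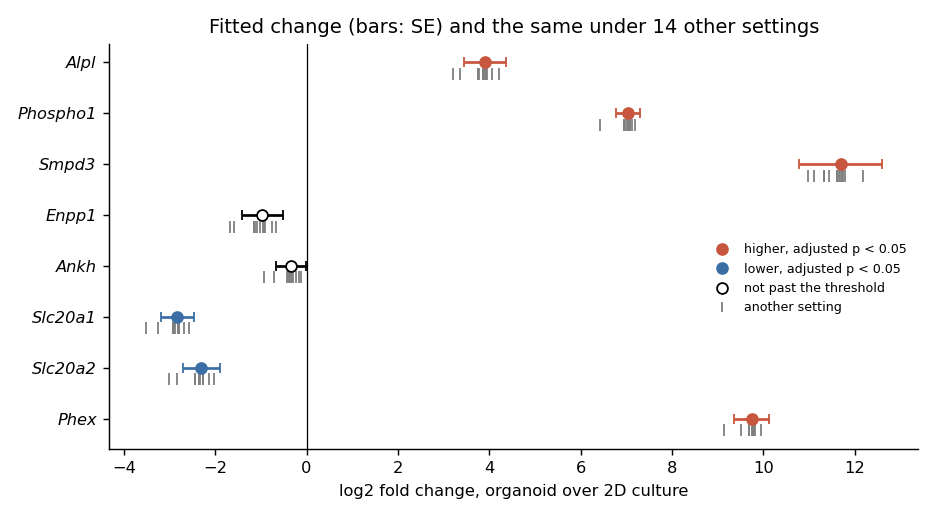
Log2 fold change of organoid over 2D culture for each gene, with bars of 1 SE, and the same value under 14 other settings as grey ticks. Alpl, Phospho1, Smpd3 and Phex stay to the right of 0 and Slc20a1 and Slc20a2 to the left, while the open circles of Enpp1 and Ankh lie below 0 without passing the threshold.

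A ratio of counts within a library does not depend on how libraries are scaled, although its size also carries the lengths of the genes, so it is compared between groups only. The log2 ratio of Alpl to Enpp1, the enzyme that cleaves pyrophosphate over the enzyme that makes it, was -0.73, -0.44 and -0.64 in 2D cultures 1 to 3 and 4.21, 3.90 and 4.80 in organoids 1 to 3. The means of -0.60 ± 0.15 and 4.30 ± 0.46 (SD, n = 3) differ by 4.90, or 29.9-fold, and leaving out any 1 library gave 4.65 to 5.10. Organoid 1 was the highest organoid in both genes, and its ratio lay between those of the other organoids. The log2 ratio of Alpl to Ankh rose by 4.16, from 1.67 ± 0.20 to 5.83 ± 1.11 (SD, n = 3), again with no overlap. Leaving out any 1 library gave a wider range here, 3.53 to 4.59. With 3 libraries against 3 an exact permutation test cannot go below a two-sided p of 0.1, so these ratios are given without a test.

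**Figure D3:**
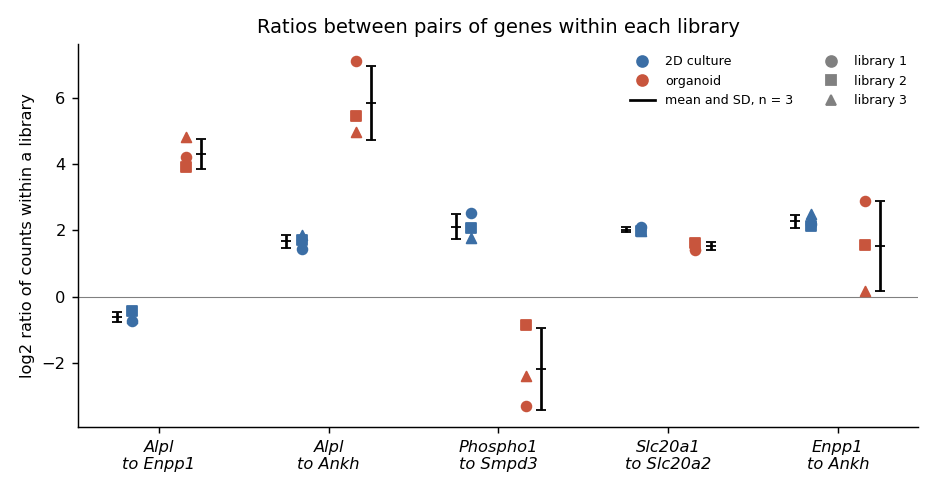
Log2 ratio of the counts of 2 genes within each library (3 2D cultures in blue, 3 organoids in red), with the mean and SD of each group beside the points. The groups are apart for Alpl to Enpp1, Alpl to Ankh, Phospho1 to Smpd3 and Slc20a1 to Slc20a2, and they overlap for Enpp1 to Ankh.

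Both sodium-dependent phosphate transporters of the SLC20 family, which carry phosphate into the cell, fell. Slc20a1 (gene ID 81826), which encodes PiT-1, was at 215, 187 and 211 CPM in 2D cultures 1 to 3 and at 44.1, 20.0 and 22.3 CPM in organoids 1 to 3. Every organoid lay below every 2D culture, with organoid 1 the highest of the organoids. The level was 7.09-fold lower in organoids (log2 fold change -2.83 ± 0.35, edgeR adjusted p = 0.00275). Its count was not whole in 2 libraries.

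Slc20a2 (gene ID 29502), which encodes PiT-2, was at 49.6, 47.3 and 53.8 CPM in 2D cultures 1 to 3 and at 16.6, 6.43 and 7.48 CPM in organoids 1 to 3. Here too organoid 1 was the highest organoid and lay below every 2D culture. The level was 4.94-fold lower in organoids (-2.30 ± 0.41, edgeR adjusted p = 0.00900). Of the 28 pairs among the 8 genes, these paralogs had the most alike profiles: their log2 CPM, centred on the 2D mean, differed by a root mean square of 0.35 over the 6 libraries. Of 8810 other genes, 26 were closer still to Slc20a1. The log2 ratio of Slc20a1 to Slc20a2 moved little, from 2.02 ± 0.08 to 1.54 ± 0.12 (SD, n = 3), a fall of 0.48 on the log2 scale with no overlap between the groups.

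Phex (gene ID 25512) rose from a low level in 2D cultures to a much higher one that varied little among organoids after TMM scaling. It was at 0.521, 0.978 and 0.774 CPM in 2D cultures 1 to 3, on 74 counts in all, and at 624, 751 and 583 CPM in organoids 1 to 3. Every organoid was far above every 2D culture. The rise was 856-fold (9.74 ± 0.38, edgeR adjusted p = 0.000142). The highest organoid was 1.29 times the lowest, a smaller ratio than in most genes, since 8.53% of the 8569 genes had a smaller one. As for Phospho1, this ratio depends on the scaling.

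Markers of several cell types moved with these genes. Summed over the 6 osteoblast markers, all of which rose, the level was 164 to 178 CPM in 2D cultures and 10314 to 16260 CPM in organoids. Most of the organoid sum was Ibsp, at 14455, 8962 and 7648 CPM in organoids 1 to 3. The 2D sum was mostly Sp7, Runx2 and Dlx5, which rose by 3.15 ± 0.25, 2.89 ± 0.26 and 0.79 ± 0.24. The 4 osteocyte markers, all of which rose, summed to 0.153 to 0.245 and 653 to 930 CPM, and the 5 hypertrophic chondrocyte markers, all of which rose, to 57.2 to 60.1 and 3409 to 6110 CPM. Most of the hypertrophic sum in 2D cultures was Mef2c, at a mean of 48.5 CPM. The 10 chondrocyte markers summed to 1501 to 1605 and 11807 to 102445 CPM, mostly Acan in 2D cultures and mostly Col2a1 in organoids. Of 6 smooth muscle markers 5 fell and Des did not pass. The 6 summed to 3611 to 3889 CPM in 2D cultures, where Tagln alone had a mean of 2849 CPM, and to 34.0 to 63.5 CPM in organoids. The 5 leukocyte markers in the files summed to 0.734 to 1.41 CPM in 2D cultures and 30.0 to 59.3 CPM in organoids. Of them Cd79a, a B cell receptor component, rose by 8.03 ± 1.02, with 6 counts over the 2D cultures and 1003 over the organoids, and Lyz2, a lysozyme gene, rose by 3.96 ± 1.03. Csf1r, the macrophage growth factor receptor, was at 32.5, 16.7 and 0.142 CPM in organoids 1 to 3 and was not tested, Cd68 did not pass, and Ptprc, the pan-leukocyte marker, was at 0.142 CPM or less. The 4 osteoclast markers in the files summed to 139 to 142 CPM in 2D cultures and 103 to 265 CPM in organoids. Most of this was Ctsk, at 134 to 137 and 87.9 to 196 CPM, which did not pass; Acp5 rose, and Oscar and Tnfrsf11a were too low to test, with 37 and 7 counts over the 2D cultures and 8 and 0 over the organoids. Of 5 tendon or fibrous markers 2 fell, Tnmd and Scx, and 3 did not pass. Of 6 endothelial markers 1 did not pass and 5 were not tested. Of 4 erythroid markers Hba-a1, a haemoglobin gene, rose (8.53 ± 1.60, edgeR adjusted p = 0.0205), with 0 counts over the 2D cultures and 108 over the organoids. The other 3 were not tested, among them Hbb with 0 and 212 counts. The part of any of these cell types in the changes of Alpl, Phospho1, Smpd3 and Phex was not tested.

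For each of the 6 called genes, the 3 genes with the nearest profile over the 6 libraries were read from 8810 genes with a mean of at least 10 CPM. Profiles were log2 CPM centred on the 2D mean. Likeness therefore rests on the size of the change between groups as well as on differences among organoids. A gene near 0 in 2D cultures could reach 10 CPM through the organoids alone, and there the prior count of 2 added before taking logs bears on its likeness. Phex was nearest to Mepe, an osteocyte matrix protein whose peptides Phex is known to degrade, at 109, 171 and 158 CPM in organoid 1, 2 and 3 (root mean square difference 0.24), then to Ptprz1 and to the collagenase gene Mmp13. Mepe had 8 counts over the 2D cultures, and its fitted log2 fold change was 10.72 against 9.74 for Phex. With TMM scaling Mepe was lowest in organoid 1, and Phex in organoid 3. Which organoid is lowest can change with the scaling, and organoid 1 had the smallest TMM factor (0.662). Phospho1 was nearest to Panx3, the pannexin of mineralising cartilage and bone, at 1688, 1630 and 1506 CPM (0.15), then to Bmp8a and to Gal, the galanin gene. With TMM scaling, and under the same limit, Panx3 was lowest in organoid 3, where Phospho1 was highest. Gal was at 0.184 CPM or less in each 2D culture, and its fitted log2 fold change was 7.98 against 7.03 for Phospho1. Bmp8a had counts that were not whole in 5 libraries. Smpd3 was nearest to the collagen genes Col10a1, at 2637, 265 and 1727 CPM (0.33), and Col9a3 (0.37), and then to Tmem255b (0.67). Tmem255b was at 0.0310 CPM or less in each 2D culture, and its fitted log2 fold change was 13.20 against 11.69 for Smpd3.

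Alpl was nearest to Ero1a, an oxidase of the endoplasmic reticulum, at 1951, 624 and 873 CPM in organoid 1, 2 and 3 (0.06), then to Vsir and Serinc5. Slc20a1 was nearest to Rrp15, Flnc and Dennd2b (0.10 to 0.18), and Slc20a2 to Il17ra, Ltbp1 and Usp11 (0.13 to 0.15). Organoid 1 was the highest organoid for Alpl, Smpd3, Slc20a1 and Slc20a2, whether the gene had risen or fallen, while organoid 3 was highest for Phospho1 and organoid 2 for Phex. Over 6 libraries that share a large difference between groups, likeness of profile is a description and carries no test.

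**Figure D4:**
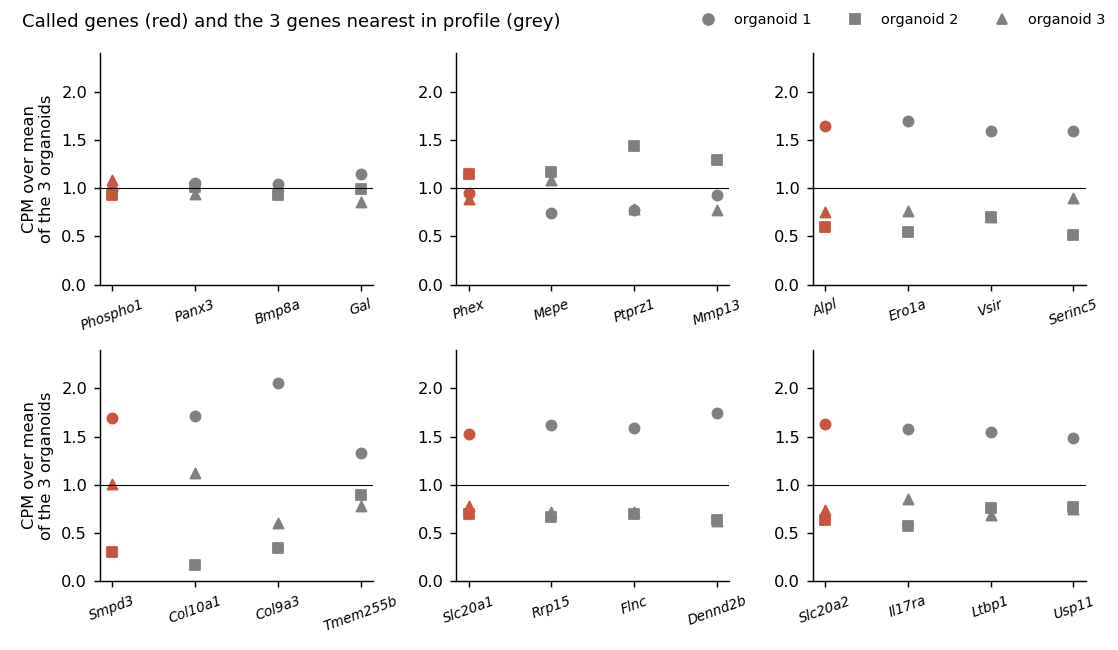
CPM after TMM scaling in organoid 1, 2 and 3 divided by the mean of the 3 organoids, for each called gene (red) and the 3 genes nearest to it in profile (grey). The points of Phospho1 and Phex lie near 1, whereas organoid 1 stands above the others for Alpl, Smpd3, Slc20a1 and Slc20a2.

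Other genes of phosphate, pyrophosphate and phosphocholine handling were read from a list of 60, of which 56 were in the files and 45 were tested. Of these, 20 rose, 5 fell and 20 did not pass, with a median log2 fold change of 0.66. Over all genes tested 14.9% were called higher and 12.6% lower. The list was drawn up with earlier results of these data known, so its counts and those of its groups are a description and no independent evidence. Among 15 tested genes of pyrophosphate, ATP and adenosine, 5 rose, 2 fell and 8 did not pass. Panx3, a channel protein that releases ATP, rose from 13.0 ± 0.66 to 1608 ± 92.9 CPM (6.95 ± 0.26, edgeR adjusted p = 0.000142), and Nt5e, which turns AMP into adenosine, rose by 3.52 ± 0.55. The channel gene Panx1 moved the other way, from 11.0 ± 0.47 to 1.91 ± 0.62 CPM (-2.53 ± 0.47), and missed the threshold without 2D culture 1, 2 or 3 (adjusted p = 0.0731, 0.0700 and 0.0711) and with limma-voom when each group had its own weight (adjusted p = 0.0513); its log2 fold change in these fits was -2.58 to -2.51. Enpp2, an Enpp1 relative that makes lysophosphatidic acid, rose by 10.38 ± 1.46, from 0.440 CPM to 1368, 64.1 and 352 CPM in organoid 1, 2 and 3, and did not pass with limma-voom (adjusted p = 0.0661).

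The soluble pyrophosphatase Ppa1 was at 187 ± 0.72 and 191 ± 70.3 CPM and did not pass (0.03 ± 0.31), although without organoid 2 it did (0.35, adjusted p = 0.0385). Lhpp, at 20.2 ± 2.15 and 32.8 ± 18.0 CPM, also passed without organoid 2 alone among the settings (adjusted p = 0.00593). Abcc6, a transporter on which circulating pyrophosphate depends, was too low to test, with 11 counts over the 2D cultures and 0 over the organoids, and was singled out after its values were seen.

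In the phosphate transport group Xpr1, the phosphate exporter, rose while both importers fell. It was at 5.12, 5.35 and 5.88 CPM in 2D cultures 1 to 3 and at 11.7, 57.9 and 40.4 CPM in organoids 1 to 3 (2.75 ± 0.58, edgeR adjusted p = 0.0159), and missed the threshold without 2D culture 1, 2 or 3 (adjusted p = 0.0803, 0.0742 and 0.0734). The mitochondrial phosphate carrier gene Slc25a3 went from 407 ± 8.80 to 208 ± 52.7 CPM, a log2 fold change of -0.97 ± 0.24, and missed the threshold without 2D culture 1, 2 or 3 (adjusted p = 0.102, 0.102 and 0.103) and without organoid 1 (adjusted p = 0.0538). Of the 5 transport genes in the files, the other 3 had 2 counts or fewer over all libraries.

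Among 15 tested genes of phosphocholine and sphingomyelin, 5 rose, 1 fell and 9 did not pass. Sgms2, a sphingomyelin synthase, rose from 79.8 ± 1.48 to 950 ± 639 CPM (3.57 ± 0.59), and the choline transporter gene Slc44a1 rose by 2.76 ± 0.25. Pcyt1a, the rate-limiting enzyme of phosphatidylcholine synthesis, rose by 1.93 ± 0.26. Chpt1 rose by 2.38 ± 0.45 and missed the threshold without 2D culture 1, 2 or 3 (adjusted p = 0.0613, 0.0598 and 0.0702). Smpd2, another neutral sphingomyelinase, was at 16.6 ± 1.53 and 16.8 ± 5.36 CPM and did not pass (0.02 ± 0.34), and neither did the choline kinase gene Chka (-0.15 ± 0.90).

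Of 10 tested genes of the FGF23 and vitamin D axis, 8 rose, 0 fell and 2 did not pass. Pth1r, the receptor of parathyroid hormone and its related protein, rose from 8.05 ± 1.12 to 1291 ± 255 CPM (7.32 ± 0.32, edgeR adjusted p = 0.000142). Galnt3, which glycosylates Fgf23 and shields it from cleavage, rose by 5.89 ± 0.74, and Fgfr3 by 3.90 ± 0.27. Fam20c, the kinase that phosphorylates Fgf23 and matrix phosphoproteins, rose by 1.53 ± 0.24, and its partner Fam20a by 7.84 ± 0.67 on counts that were not whole in any of the 6 libraries. Fgfr2 did not pass (0.59 ± 0.29, adjusted p = 0.174), although without organoid 2 it did (adjusted p = 0.0281). Kl, the co-receptor of Fgf23, and Cyp24a1, which inactivates vitamin D, had 0 counts in all 6 libraries, which allows up to 3 counts, or 0.0917 to 0.180 CPM, in each (counting error only); both were singled out after their values were seen.

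Of the other phosphatases, Acp2 went from 114 ± 2.35 to 42.2 ± 6.83 CPM (-1.43 ± 0.20, edgeR adjusted p = 0.00389), and Acp1 did not pass (-0.43 ± 0.22), although with total library size it did (-1.05, adjusted p = 0.0165). Acp5, tartrate-resistant acid phosphatase, rose by 3.50 ± 0.76, was at 99.0, 23.2 and 14.8 CPM in organoid 1, 2 and 3, and missed the threshold without 2D culture 1, 2 or 3 (adjusted p = 0.0810, 0.0807 and 0.0803). Of the 3 acid phosphatases tested, 1 rose, 1 fell and 1 did not pass. Of the 25 called genes of the whole list, 14 kept their call in every setting in which they were tested.

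Mineral-binding matrix proteins and transcription factors of bone and hypertrophic cartilage are given as a description, since the list was drawn up with results of these libraries known and its direction is no independent evidence. The list held 19 genes, of which 17 were in the files and tested. Of these, 15 rose, 0 fell and 2 did not pass, beside 14.9% called higher over all genes tested. Their median log2 fold change was 4.15. Many of them, such as Ibsp, Dmp1, Mepe, Col10a1, Sp7, Dlx5 and Mef2c, are also cell type markers counted above. So are Pth1r and Acp5 of the pathway list, and these counts are therefore not separate results. All 8 matrix genes rose, from Mgp, an inhibitor of mineralisation (2.56 ± 0.62), to Ibsp (12.27 ± 0.50). Dmp1 rose by 12.03 ± 0.74 and Col10a1 by 11.57 ± 1.13. Mgp missed the threshold without 2D culture 1, 2 or 3 (adjusted p = 0.107, 0.0947 and 0.103). Spp1, which encodes osteopontin, a mineral-binding protein whose inhibitory peptide Phex cleaves, rose from 424 ± 30.0 to 8382 ± 1725 CPM (4.31 ± 0.30). Among the transcription factors Dlx3 rose by 4.35 ± 0.43, Mef2c by 4.15 ± 0.28, Sp7, osterix, by 3.15 ± 0.25 and Runx3 by 3.12 ± 0.25. Atf4 (0.27 ± 0.32) and Msx2 (0.08 ± 0.68) did not pass. Dlx5 rose by 0.79 ± 0.24 and lost its call in 7 of the other settings, among them without 2D culture 1, 2 or 3 (adjusted p = 0.163, 0.170 and 0.193) and without organoid 3 (adjusted p = 0.0664).

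**Figure D5:**
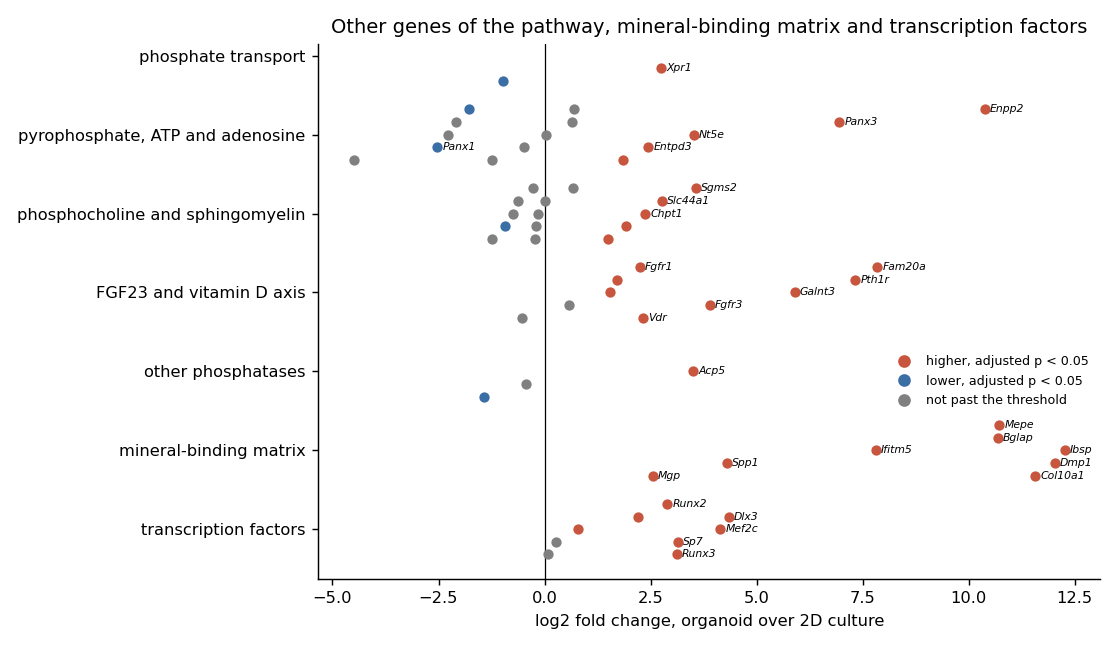
Log2 fold change of organoid over 2D culture for each tested gene of the 5 pathway groups, of the mineral-binding matrix and of the transcription factors, coloured by call; vertical position within a group only separates points. Points of the FGF23 and vitamin D axis, the matrix and the transcription factors lie mostly to the right of 0, and those of pyrophosphate, phosphocholine and the other phosphatases on both sides.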

How the data were processed

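Total RNA was extracted with Trizol and sequenced as mRNA libraries on the DNBSEQ platform, per the labels' protocols. The submitters' processing notes list the tools RSEM, Bowtie2, HISAT, HISAT2 and DESeq2, with no versions or roles; genome build, annotation and strandedness are not stated in the sources used here. For each library the authors deposited expected counts per gene, which are estimates, partly not whole, and not normalised. Groups came from the sample titles. Every pair of libraries in a group differed by more than sampling noise (lowest chi-square per degree of freedom 8.80).

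Counts were rounded and analysed in R 4.3.3 with edgeR 4.0.16 (filterByExpr with minimum count 10, TMM, robust quasi-likelihood F-test, Benjamini-Hochberg over all genes tested); SEs were taken as the absolute log2 fold change divided by the root of F. Alternatives used limma 3.58.1, DESeq2 1.42.0, other scalings, other filters (minimum count 50, or none), a replicate block and the leave-out of each library. Log2 CPM used a prior count of 2 and ratios a pseudocount of 0.5 counts. The genes and lists were chosen with earlier results of these data known. Of the lists, up to 4 called genes per role with the largest change and up to 2 with the smallest change are given. Other genes outside this rule appear in counts and plots only, and Msx2, Abcc6, Kl, Cyp24a1 and the single cell type markers were named after their values were seen. A gene of the osteoblast and transcription factor lists is not reported here and was left out of their counts.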

Additional observations from a re-analysis of the deposited data

How the results depend on the processing

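Over 14 other settings Alpl, Phospho1, Smpd3 and Phex stayed called higher, Slc20a1 and Slc20a2 stayed called lower and Ankh stayed uncalled, while Enpp1 passed in 3 of them. Leaving out 1 library gave 4 of the genes called higher each time, and 2 to 3 lower. Over all genes, total library size gave 1063 higher and 3529 lower (23.1% of calls higher, against 1944 and 1650), and limma-voom 2478 lower. Leaving out 1 library gave 703 to 2747 genes higher and 399 to 2574 lower, the low values without a 2D culture. Of the pathway list, 9 genes fell with total library size, 8 with limma-voom and 1 to 7 on leaving out 1 library, and 14 to 24 rose; the causes were not tested. The Enpp1 to Ankh ratio went from -1.42 without organoid 1 to -0.06 without organoid 3. Replicate numbers were not shown to pair libraries: same-numbered libraries had correlations of 0.02 to 0.19 in their deviations from group means, and 2 of 3 2D cultures correlated best with their own number. With the replicate block 1441 genes were higher and 1289 lower, and 4 and 2 of the genes described here; of the other genes named, Slc25a3 (adjusted p = 0.0512) and Dlx5 (0.106) were not called with it. Depth limits the 2D levels of Smpd3, Phex and Phospho1, at 26, 74 and 118 counts.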
